A study of Arabidopsis thaliana with 9 samples.

Results

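The LCR and SCRL genes of Arabidopsis thaliana encode small, secreted, cysteine-rich proteins. The members were the protein-coding genes on chromosomes 1 to 5 whose symbol in the RefSeq gene table is LCR or SCRL followed by digits. There were 107 of them among 27444 coding genes, 80 LCR and 27 SCRL. Another 2 genes with such symbols, LCR71 and SCRL28, are annotated as transcribed pseudogenes and were left out. The members were chosen by name alone, but this family was put forward with its ChIP and DAP peaks in these lists already known, so the shares of bound members are given as a description, with no test.

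LCR stands for low-molecular-weight cysteine-rich and SCRL for SCR-like. SCR is the pollen ligand of self-incompatibility in Brassica and in Arabidopsis lyrata, where it is recognised by a receptor kinase on the stigma. Both groups belong to the wide class of defensin-like proteins, whose cysteines form disulphide bonds in the endoplasmic reticulum on the way out of the cell. Plant defensins of this class act against fungi, and other relatives act in signalling between pollen and pistil. NAC103, the transcription factor under study, is known in Arabidopsis as a target of the endoplasmic reticulum stress regulator bZIP60.

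Binding of NAC103 was mapped in seedlings by chromatin immunoprecipitation (ChIP) and on naked DNA by DNA affinity purification (DAP). The ChIP group had 3 replicates of whole 5-day-old seedlings that carried 35S:NAC103-GFP, in which the 35S promoter drives the fusion strongly and in most tissues, after 24 h in 20 µM of the proteasome inhibitor MG132. The DAP group had 2 replicates of NAC103-Halo on DNA of untreated Col seedlings, also 5 days old. Each ChIP replicate had an input from the same genotype and treatment, and the DAP replicates shared an input from untreated Col. Each of the 5 lists of peaks was used, and the chromatin of an untagged line was not part of the data. The labels do not say whether the replicates are separate cultures, so their spread may be technical. On the nuclear chromosomes the lists held 4187, 14318 and 17074 ChIP peaks and 20746 and 20962 DAP peaks, and the read depth behind them is unknown.

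NAC103 peaks were sparse around the LCR and SCRL genes. A gene was called in ChIP where peaks of at least 2 of the 3 lists reached its span or the 1000 bp on each side, and in DAP where peaks of both lists did. ChIP called 14 of 107 members (13.1%, exact 95% interval 7.34% to 20.98%), against 25.8% of other coding genes of like length and 44.3% of all coding genes. DAP called 32 members (29.9%, interval 21.4% to 39.5%), against 43.6% at like length and 59.9% of all coding genes. Both assays called 4 members (3.74%), against 12.7% at like length and 28.2% of all. No peak of any of the 5 lists came near 44 members (41.1%), against 29.3% at like length and 11.8% of all. The intervals cover counting error only, and neighbouring members can share a peak.

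The comparison at like length was needed because these genes are short. Members were 270 to 1558 bp long with a median of 584 bp, against 2078 bp for all coding genes, and a longer gene has more room for a peak. For each member, other coding genes within 10% of its length were taken and their shares averaged over the members, which drew on 9813 genes. Among other coding genes the share called in ChIP was 20.4% at 250 to 500 bp and 23.4% at 500 to 750 bp, and in DAP 40.9% and 41.4%. The members in these bins stood at 8.82% (3 of 34) and 14.6% (6 of 41) in ChIP, and at 26.5% (9 of 34) and 36.6% (15 of 41) in DAP. The 19 members of 750 to 1000 bp were called in 21.1% of cases in ChIP and 31.6% in DAP, against 34.4% and 50.5% of other genes. In every length bin that held members, both assays thus called a smaller share of members than of other genes.

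**Figure D1:**
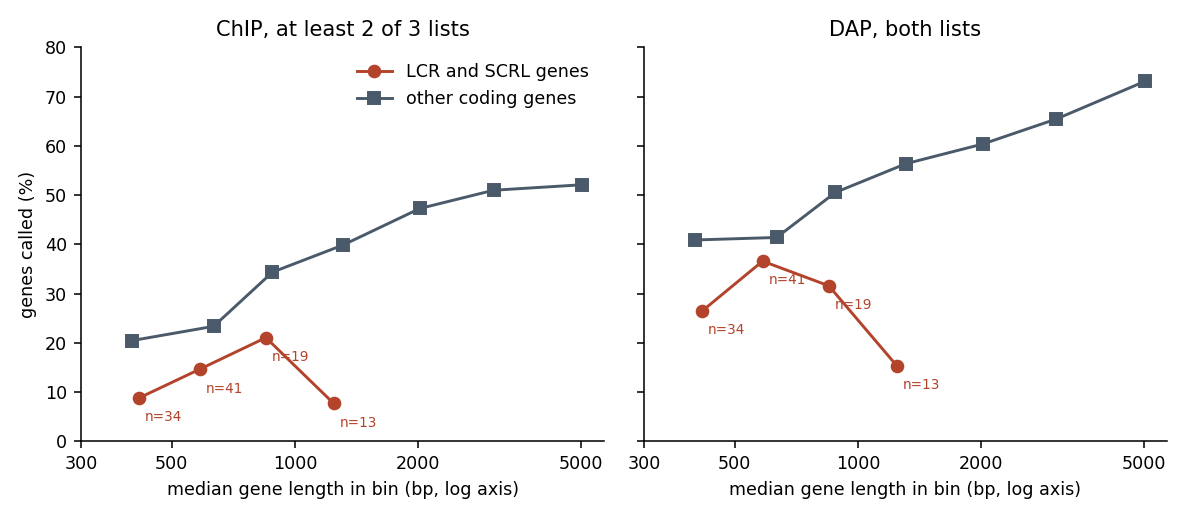
Share of genes called in ChIP (left) and in DAP (right) against the median gene length of each bin, on a log axis. Red points are the LCR and SCRL genes with their number per bin, and dark squares are other coding genes. The red points lie below the squares in each shared bin of both panels, for example at 8.82% against 20.4% in ChIP for 250 to 500 bp.

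The same order of shares stood in each list on its own. ChIP replicate 1, the shortest list, had a peak at 4 members (3.74%), against 9.67% at like length and 17.0% of all coding genes. ChIP replicate 2 had a peak at 20 members (18.7%), against 32.9% and 50.8%. ChIP replicate 3 had a peak at 23 members (21.5%), against 36.4% and 59.7%. In DAP, replicate 1 reached 36 members (33.6%, against 47.5% and 64.4%) and replicate 2 reached 38 (35.5%, against 48.7% and 64.7%). The members were therefore below genes of like length in 5 of 5 lists, in both assays, at 0.387 to 0.591 times their share in ChIP and 0.708 to 0.729 times in DAP. The 2 assays were not tested against each other.

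**Figure D2:**
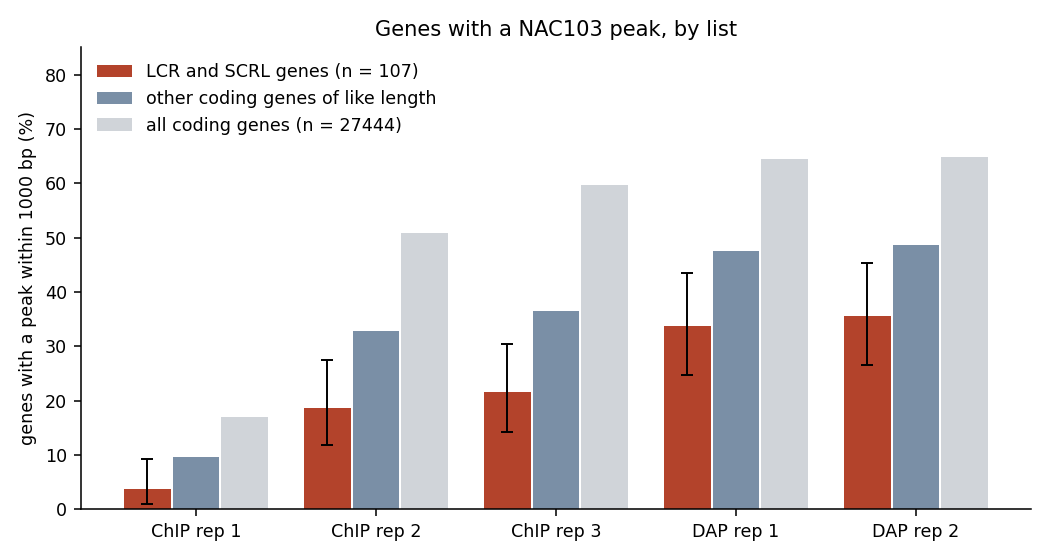
Percent of genes with at least 1 peak within 1000 bp, for each of the 5 lists. Red bars are the 107 LCR and SCRL genes with exact 95% intervals, blue bars other coding genes of like length and grey bars all 27444 coding genes; the red bar is the lowest in each list.

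Neighbouring genes bear on these shares, since a window can take in the end of another gene. No other coding gene stood in the window of 40 members (37.4%), against 26.9% of genes of like length. Of these 40, ChIP called 4 and DAP 12, against 14.9% and 34.0% of equally isolated genes of like length, which for 40 genes comes to 5.94 and 13.6. Here 16 had no peak in any list, against 46.1% of those genes, or 18.4 of 40, so among isolated genes the members were not the ones more often without a peak. With 1 other coding gene in the window, ChIP called 3 of 41 members (7.32%, against 25.6% at like length) and DAP 9 (22.0%, against 45.8%), and 21 had no peak (51.2%, against 27.3%). With 2 or more, ChIP called 7 of 26 (26.9%, against 34.8%) and DAP 11 (42.3%, against 48.6%). Local gene density was close, with a mean of 25.3 coding genes within 50 kb of a member and 25.7 for genes of like length.

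Where a ChIP peak did stand near a member, its summit mostly lay away from the gene. Of the 53 pairs of a member and a ChIP peak in its window, 5 (9.43%) had the summit inside the gene or within 250 bp of it, against 43.1% of the pairs at genes of like length. The value was 0 of 4 in replicate 1, 2 of 22 in replicate 2 and 3 of 27 in replicate 3. In DAP it was 39 of 85 pairs (45.9%), against 41.0% at like length, with 17 of 41 in replicate 1 and 22 of 44 in replicate 2. For isolated members it was 2 of 17 pairs in ChIP (11.8%, against 40.3%) and 18 of 32 in DAP (56.3%, against 43.3%). The distance of 250 bp was chosen after the summits had been plotted. The table gives no strand, so which end of a member is its start was not used.

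**Figure D3:**
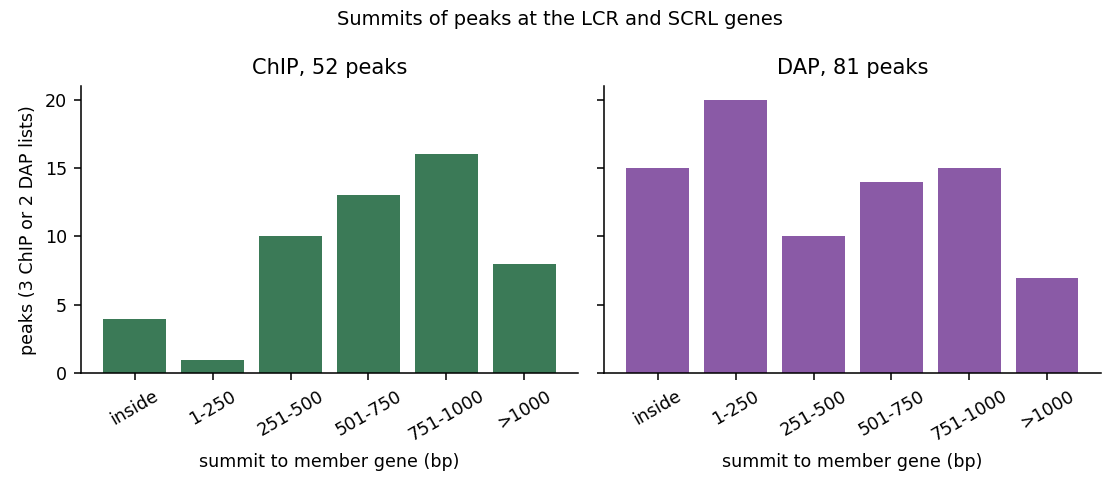
Number of peaks at the LCR and SCRL genes by the distance of the summit from the gene span, with each peak counted once, for the first member along the chromosome that it reaches. Of 52 ChIP peaks 4 had the summit inside the gene and 1 within 250 bp, while of 81 DAP peaks 15 were inside and 20 within 250 bp.

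A summit inside the member's own span was seen in ChIP at 4 members in any list (3.74%, against 19.6% at like length and 43.7% of all coding genes). They were LCR43, LCR61, LCR63 and LCR19, each in 1 list, and the summit in LCR43 also lay in the overlapping gene AT3G07010. In at least 2 ChIP lists it was seen at 0 of 107 members, which allows a share of up to 2.80% by the floor of 3 counts and 3.39% by the exact 95% interval, against 6.78% at like length and 18.9% of all. In DAP it was seen at 12 members in either list (11.2%, against 17.3% and 44.7%) and at 6 in both lists (5.61%, against 12.8% and 36.5%). Of the 52 ChIP peaks at members, 22 had their summit inside another coding gene and 26 outside coding genes. Of the 81 DAP peaks, 25 lay inside another coding gene and 41 outside. Each peak was counted for the first member it reaches, so the 25 include summits inside the members SCRL5 and SCRL7. By pairs, 18 of 85 DAP pairs had the summit inside the member. For 28.3% of the ChIP pairs and 56.5% of the DAP pairs, the member was the coding gene nearest to the summit, against 47.5% and 53.4% at like length.

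The peaks at members were of usual strength for ChIP. The authors' fold enrichment at the summit over background had a median of 1.97, 2.03 and 2.66 at members in ChIP replicates 1 to 3, against 1.94, 2.06 and 2.47 over all nuclear peaks of the same lists. In DAP the medians were 2.45 and 2.57, against 2.74 and 2.71. By rank within its own list the median ChIP peak at a member stood at percentile 55.3 and the median DAP peak at percentile 39.8. A −log10 q of at least 10 was reached by 11 of the 52 ChIP peaks (21.2%, against 20.7% of all nuclear ChIP peaks) and by 62 of the 81 DAP peaks (76.5%, against 80.4%).

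Of the 14 members called in ChIP, 12 were LCR and 2 SCRL genes, and 9 had no DAP peak in either list. LCR31, LCR32 and LCR81 had a peak in all 3 ChIP lists (2.80% of members, against 14.6% of all coding genes and 7.98% at like length). LCR31 (AT1G28335) was the only member with a peak in all 5 lists. The strongest peak of each list had a fold of 1.87, 2.53 and 4.65 for ChIP replicates 1 to 3, and of 2.20 and 2.01 for DAP. ChIP peaks of replicates 2 and 3 lay on both sides of the gene, and that of replicate 1 on the side without DAP peaks. The replicate 3 peak of fold 4.65 ran from 9938728 to 9939100 on chromosome 1, with its summit 1185 bp from the gene. Both DAP summits were on that same side, 139 and 209 bp from the gene. The nearest ChIP and DAP summits at LCR31 were 888 bp apart, and no other coding gene stood in its window. The replicate 3 summit of fold 4.65 was nearer to RLP4, at 1021 bp.

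LCR32 (AT2G28405) had folds of 2.07, 2.95 and 4.12 in ChIP replicates 1 to 3 and no DAP peak. These 3 peaks overlapped, from 12152224 to 12152760 on chromosome 2 in replicate 3, with summits 663 to 736 bp from the gene, and no other coding gene stood in the window. It had the highest mean rank of fold among the ChIP-called members, at percentile 85.4. LCR81 (AT2G25295) had folds of 1.77, 2.19 and 3.33 and summits 976 to 1079 bp away, with AT2G25297 also in its window. These summits were nearest to AT2G25300, 21 to 124 bp away. LCR76 (AT2G31953) had peaks in replicates 1 and 3, with folds of 2.41 and 2.67 and summits 651 and 670 bp from the gene. The molybdenum cofactor gene CNX2 shares that window, but the coding gene nearest to both summits was AT2G31945, 359 and 340 bp away.

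The other 10 were called from replicates 2 and 3. SCRL2 (AT1G65113) held the highest ChIP fold of all members: 8.73 in replicate 2, against 2.48 in replicate 3, at 24190696 to 24191173 on chromosome 1 in replicate 2. The summits of these 2 peaks lay 924 and 855 bp from the gene, and nearer to AT1G65120, at 229 and 298 bp. At LCR9 (AT2G27145) folds were 2.44 and 3.33, and both summits lay inside AAO3, the gene of an aldehyde oxidase of abscisic acid synthesis. LCR51, LCR8 and LCR46 likewise had the summits of both lists inside a neighbour. For LCR46 (folds 2.10 and 2.25) that neighbour was DHNAT2, and for LCR51 (1.73 and 2.11) and LCR8 (1.91 and 2.60) it was AT2G41000 and AT3G61170. LCR45 was called from peaks on opposite sides, at folds of 1.67 in the gene POR and 2.84 in the ubiquitin protease gene UBP3. In all, 10 of the 14 had another coding gene in the window, 7 had a ChIP summit inside such a gene, and 12 had peaks of 2 lists that overlapped each other. An empty window is found at 37.4% of all members and 26.9% of genes of like length, so a neighbour in the window is usual. Of the 32 members called in DAP, 20 had another coding gene in the window and 13 a DAP summit inside such a gene.

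**Figure D4:**
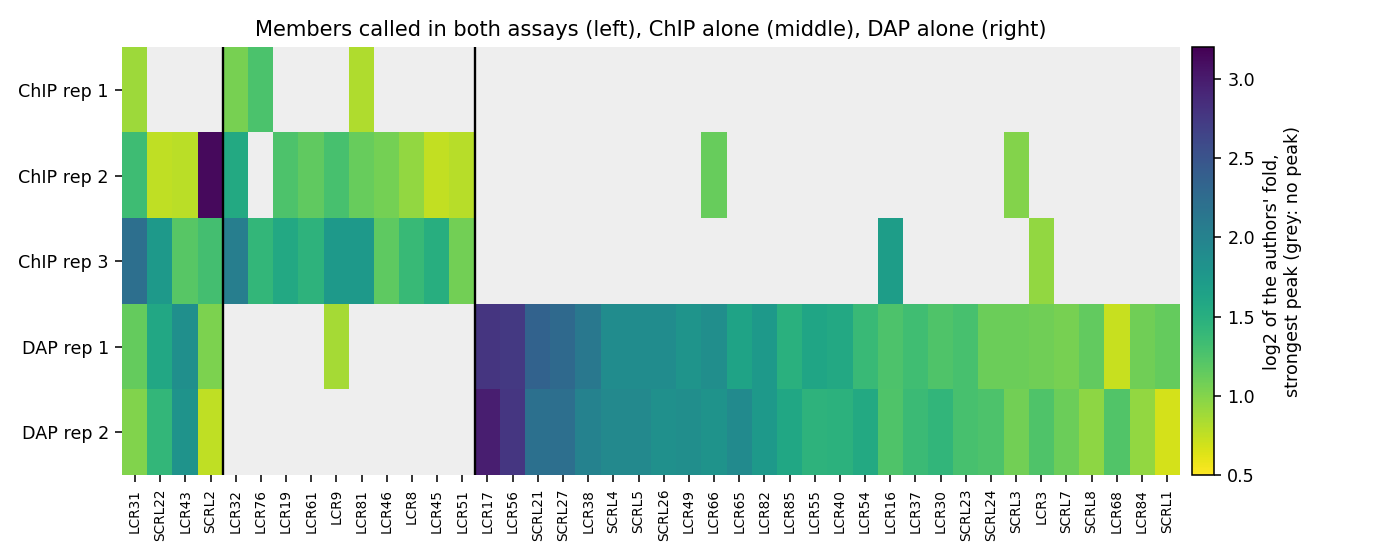
The authors' fold enrichment, on a log2 colour scale, of the strongest peak at each called member in the 5 lists, with grey for no peak. Columns are the 4 members called in both assays, the 10 called in ChIP alone and the 28 called in DAP alone. At 30 of the 32 members called in DAP the DAP folds are within a factor of 1.3 of each other, and ChIP replicate 1 is grey for all but 4 members.

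The 4 members called in both assays were LCR31, SCRL2, LCR43 and SCRL22. At SCRL2 the DAP peaks had folds of 2.05 and 1.69, with summits inside AT1G65110. They lay on the other side of SCRL2 from its ChIP peak of 8.73, and overlapped a ChIP replicate 3 peak of fold 2.01. At LCR43 (AT3G07005) ChIP folds were 1.71 and 2.30 in replicates 2 and 3, and DAP folds were 3.61 and 3.52. LCR43 itself overlaps AT3G07010, which held the DAP summits and the ChIP summits of both replicates. The nearest ChIP and DAP summits there were 135 bp apart. At SCRL22 (AT4G33465) ChIP folds were 1.69 and 3.33 and DAP folds 2.99 and 2.67. Its nearest ChIP and DAP summits were 66 bp apart, which made it the only member with summits within 100 bp, outside any coding gene on chromosome 4 (ChIP replicate 3 peak at 16102199 to 16102770). Counting any list, 9 members had a peak in both assays (8.41%, against 27.05% at like length and 49.7% of all coding genes). At 4 of them, LCR66, SCRL2, LCR43 and SCRL22, a ChIP and a DAP peak overlapped (3.74%, against 14.5% and 25.1%). Summits within 100 bp stood at 0.935% of members, against 6.34% at like length and 10.8% of all coding genes. ChIP called 4 of the 32 members with a DAP call (12.5%) and 10 of the 75 without (13.3%), against 28.3% and 24.0% of genes of like length with and without a DAP call.

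A ChIP peak in any list stood at 30 members (28.0%, against 45.1% at like length and 68.7% of all coding genes). In a single list it stood at 16 of them (15.0%, against 19.3% at like length and 24.4% of all coding genes), 7 in replicate 2 and 9 in replicate 3. The highest was SCRL20 (AT4G10115), with a fold of 5.02 in replicate 3, percentile 98.9 of that list, at 6313247 to 6313581 on chromosome 4. Its summit lay 838 bp from the gene, with no other coding gene in the window and no DAP peak. The coding gene nearest to that summit was ATSPS4F, 488 bp away and outside the window. By the rank of a fold within its own list, LCR16 followed with 3.23 in replicate 3 (percentile 81.5), then LCR59 and LCR63, which shared a peak of 2.75 in replicate 3 (percentile 65.0). LCR66 had 2.19 in replicate 2 (percentile 63.0) and LCR86 had 2.72 in replicate 3 (percentile 62.9). Single-list peaks have no replicate check.

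DAP was led by a few members with strong peaks in both lists. LCR17 (AT4G11760) had the highest folds, 6.88 and 7.86, at 7081097 to 7081493 on chromosome 4 in replicate 1, with summits 862 and 859 bp from the gene. A weaker DAP peak on its other side had folds of 2.34 and 2.47. LCR56 (AT3G20993) had folds of 6.76 and 6.84 at 7359190 to 7360383 on chromosome 3 in replicate 1, and summits 287 and 288 bp away. SCRL21 (AT4G10767) followed with 5.10 and 4.60, its summits 160 and 150 bp from the gene. SCRL27 (AT5G45875) had 4.83 and 4.65 with both summits inside the gene. These members were between percentiles 87.9 and 97.4 of fold in the mean of the 2 lists, and none of the 4 had a ChIP peak.

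The remaining leaders in DAP were LCR38 (4.35 and 3.998), SCRL4 and SCRL5, which share their strongest peak (3.69 and 3.799), SCRL26 (3.71 and 3.58), LCR66 (3.65 and 3.52), LCR43, LCR49 (3.48 and 3.64) and LCR65 (3.11 and 3.74). The summits at SCRL26 lay inside the neighbouring beta-glucosidase gene BGLU3, and those at LCR49 inside YUC7, a gene of auxin synthesis. Summits at LCR38 were nearest to AT4G19910 (135 and 146 bp), and those at LCR65 to AT1G73610 (336 and 321 bp). LCR66 is also named PDF2.4, a plant defensin, and its strongest DAP summits lay in AT1G61065, 103 bp from a ChIP replicate 2 summit. Over the 32 members called in DAP, the strongest peak per list had folds from 1.59 to 7.86. At 30 of them the 2 lists were within a factor of 1.3 of each other, 17 were below 3 in both lists and 4 were above 4 in both. At SCRL1 the peaks of the 2 lists did not overlap. Another 10 members had a DAP peak in a single list (9.35%, against 9.02% at like length and 9.3% of all), which made 42 with a peak in either (39.3%, against 52.6% and 69.2%).

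The share called in DAP was higher among the SCRL than among the LCR genes. DAP called 13 of 27 SCRL genes (48.1%, against 42.3% at their like length) and 19 of 80 LCR genes (23.8%, against 44.0%). ChIP called 2 of 27 SCRL genes (7.41%, against 24.7%) and 12 of 80 LCR genes (15.0%, against 26.2%). No peak in any list stood at 10 SCRL genes (37.0%, against 30.7%) and 34 LCR genes (42.5%, against 28.8%). Over all coding genes the shares were 59.9% in DAP, 44.3% in ChIP and 11.8% with no peak. The SCRL share in DAP rests in part on a tandem group of 5, and without it DAP called 9 of 22 (40.9%). That is close to the 42.3% at the like length of all 27 SCRL genes. These group differences were not tested.

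The 3 largest tandem groups of members each held mostly peaks of a single assay, or none. The 107 members formed 84 clusters of overlapping windows, and 71 members were alone. In the cluster SCRL8, SCRL6, SCRL4, SCRL5 and SCRL7 on chromosome 1, each gene had a DAP peak, 4 of the 5 were called in DAP and no ChIP list had a peak in any window. Strongest DAP folds were 2.22 and 1.95 at SCRL8, 2.57 in replicate 2 alone at SCRL6, 3.69 and 3.799 at SCRL4 and SCRL5, and 2.07 and 2.15 at SCRL7. SCRL4 also had peaks of 2.63 in both lists with the summits inside the gene, as were those of the shared peak inside SCRL5, and SCRL7 lies within the span of AT1G60990. In the cluster LCR61, LCR63, LCR59 and LCR19 on chromosome 4 no DAP list had a peak in any window. Each of the 4 genes had a ChIP peak in some list, but ChIP called only 2, LCR61 and LCR19. LCR63 and LCR59 shared 1 peak of replicate 3. Of all coding genes, 68.7% had a peak in any ChIP list and 69.2% in either DAP list.

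At LCR61 (AT4G30064) ChIP replicate 2 had a peak of fold 2.23 inside the gene and replicate 3 a peak of 2.74 with its summit 732 bp away, and these did not overlap. LCR19 (AT4G30074) had a peak of 2.39 inside the gene in replicate 2. On its far side, peaks of 1.93 in replicate 2 and 2.98 in replicate 3 overlapped, from 14701450 to 14702172 in replicate 3. The largest cluster, LCR22, LCR21, LCR24, LCR26, LCR27 and LCR25 on chromosome 4, had no peak at 5 of its 6 genes. LCR25 had 1 ChIP peak, of fold 1.82 in replicate 2, which reached into AT4G29310. Reads from near-identical copies cannot be placed with certainty, and how alike the copies in these clusters are was not tested.

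**Figure D5:**
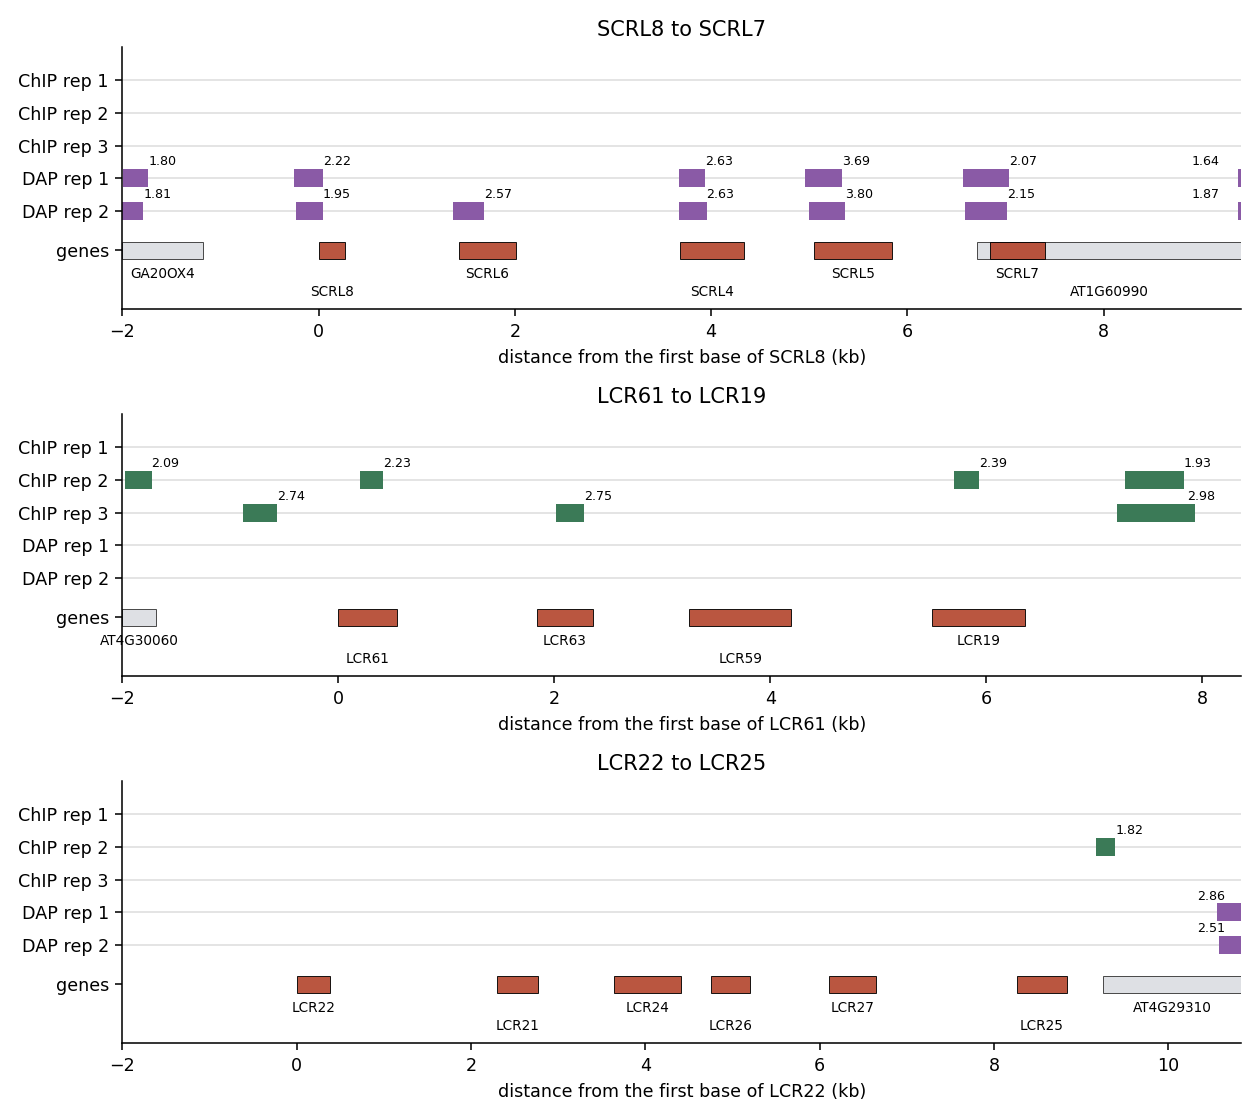
Peaks of the 5 lists along 3 tandem groups, drawn against the distance in kb from the first base of the first gene, with members in red, other coding genes in grey, ChIP peaks in green and DAP peaks in purple, and the authors' fold beside each peak. The SCRL group holds DAP peaks and no ChIP peak, the LCR61 group ChIP peaks and no DAP peak, and 5 of 6 genes of the LCR22 group neither.

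By chromosome, DAP called 10 of 13 members on chromosome 1 (76.9%, against 45.3% of genes of like length on that chromosome), and 4 of these 10 belong to the cluster of SCRL8. On the other chromosomes it called 5 of 27 on chromosome 2 (18.5%, against 39.0%), 5 of 20 on chromosome 3 (25%, against 42.4%), 10 of 34 on chromosome 4 (29.4%, against 43.5%) and 2 of 13 on chromosome 5 (15.4%, against 44.9%). Members were thus above genes of like length in DAP on chromosome 1 and below them on the other 4. ChIP called 2, 5, 2, 4 and 1 of these members on chromosomes 1 to 5, or 7.69% to 18.5%, against 23.2% to 27.1% at like length on the same chromosomes. All coding genes of a chromosome stood at 59.2% to 60.4% in DAP and at 42.9% to 45.5% in ChIP. These differences between chromosomes were not tested. Members with no peak at all included LCR1, LCR2 and LCR4, and SCRL9, SCRL10 and SCRL11. SCRL10 and SCRL11 stand in each other's windows. LCR2 is near the limit, since a DAP replicate 2 peak of fold 6.05 ended 1044 bp from the gene, outside its window.

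Moving the limit of 1000 bp by 100 bp changed few calls, while larger steps changed many. The closest peaks inside it were those of LCR31 in ChIP replicate 2 (987 bp from the gene, fold 2.53), LCR59 in ChIP replicate 3 (978 bp, 2.75) and SCRL2 in DAP replicate 1 (974 bp, 2.05). The closest outside were those of LCR9 in DAP replicate 2 (1025 bp, 2.77) and SCRL25 in DAP replicate 1 (1033 bp, 2.57). With limits of 900 and 1100 bp ChIP called 14 members each time, and DAP called 30 and 33. With limits of 0, 500 and 2000 bp ChIP called 1, 5 and 26 members, and DAP called 14, 21 and 48. In ChIP these were 0.935%, 4.67% and 24.3%, against 12.6%, 19.3% and 36.1% at like length. In DAP they were 13.1%, 19.6% and 44.9%, against 21.0%, 32.5% and 59.7%.

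Related genes outside the rule were looked up by PDF and LURE symbols only, so other defensin-like genes were not counted. The PDF genes encode plant defensins, and of 8 with such a symbol ChIP called 2 (25%) and DAP 4 (50%). None of the 8 was free of peaks. Over all coding genes these shares were 44.3%, 59.9% and 11.8%. PDF2.1 was called from the same DAP peaks as the member LCR68, with folds of 1.66 and 2.35. PDF1.2, a defensin gene known as a marker of jasmonate and ethylene signalling, had DAP folds of 2.49 and 3.22 and no ChIP peak. PDF1.4 reached 1.79 and 3.14 in ChIP replicates 1 and 3, and PDF2.5 reached 1.77 and 2.55 in replicates 2 and 3. The gene table lists 4 of the 8 under an LCR synonym too. Of the 5 members that carry a PDF synonym, LCR66, LCR67, LCR68, LCR69 and LCR72, ChIP called 0 and DAP 2, and 2 had no peak. Of 5 LURE1 genes, whose products attract pollen tubes to the ovule, 3 had no peak (60%, against 11.8% of all coding genes). LURE1.2 was called in both assays (ChIP folds 7.63 and 2.84 in replicates 2 and 3, DAP folds 2.26 and 2.27).

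Leaving out ChIP replicate 2 or 3, with both remaining lists required, lowered the ChIP call to 4 and 3 members (3.74% and 2.80%, against 8.87% and 8.38% at like length). That rule needed a peak of replicate 1, which had one at 4 members, so the counts could not exceed 4. Of the 14 members called in ChIP, 13 had peaks in both replicates 2 and 3. No list of an untagged or GFP-only ChIP was used, so peaks of the tag, the antibody or open chromatin cannot be told apart from binding of NAC103.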

How the data were processed

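The 5 files are narrow peak lists, each of a single replicate set against input. Per the submitters' processing notes, the tools were BWA and MACS2 (versions not given in the sources used here) and the build TAIR10. The deposited columns are a score, a fold enrichment (a ratio over background), −log10 values of the p-value and q-value, and the summit's distance from the peak start. The smallest −log10 q was 1.30, so weak peaks are included. Folds were used to describe and rank peaks within a list. Mitochondrial and plastid peaks were left out.

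Gene names and spans came from a RefSeq gene table of TAIR10.1, with no strand and no exons. In 25 of 25 chromosome segments ChIP summits lay within 300 bp outside gene ends more often than after shifts of 2000 bp to either side. Overlap meant at least 1 bp. Peak coordinates are 1-based. Members, lists and alternatives were chosen with earlier results of these data known. The related list was planned as PDF and a digit, and was narrowed to PDF, digit, point, digit, since other genes share the shorter symbol. Named are all members called in ChIP, the 12 strongest in DAP, the 6 strongest with 1 ChIP list, the first 3 LCR and SCRL genes with no peak, and the ends of the largest cluster. Sequence words and sequences were not analysed here. Counting was checked on simulated peaks. Python 3.11.15, pandas 2.3.3, numpy 2.4.6 and scipy 1.17.1 were used. No test across samples was made.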

Additional observations from a re-analysis of the deposited data

How the results depend on the processing

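Members stayed below genes of like length in ChIP under all 16 settings with such a share, and in DAP under all 15. These totals include the setting as reported and those that left out a list of the other assay, where the share could not change. Having no peak stayed more frequent in members under 12 of 13, with the reported setting counted, the exception being isolated genes (16 of 40 members). With windows of 0, 500 and 2000 bp, ChIP called 1, 5 and 26 members, at the shares given above. Both assays called 1, 2 and 12 (0.935%, 1.87% and 11.2%, against 4.05%, 7.70% and 23.6% at like length). DAP called 14 and 21 at 0 and 500 bp. No peak stood at 83 and 27 members at 0 and 2000 bp (77.6% and 25.2%, against 56.7% and 16.8%). At a −log10 q of at least 10, ChIP called 1 (0.935%, against 2.95%) and both assays 0 (against 1.51%). With the 4187 top peaks of each list, ChIP called 4 (3.74%, against 8.22%) and DAP 5 (4.67%, against 11.7%). Both called 0 (against 1.10%), and 92 had no peak (86.0%, against 70.2%). Of the 40 isolated members ChIP called 4 (10%, against 14.9% at like length) and DAP 12 (30%, against 34.0%). Both assays called 1 of them (2.5%, against 6.77%). These shares were closer to those at like length than in the setting as reported. Requiring all 3 ChIP lists gave 3, and any list 30. Without ChIP replicate 1, 2 or 3, and with both remaining lists required, ChIP called 13, 4 and 3 members. Without DAP replicate 1 or 2, a peak in the single remaining list was enough, and DAP called 38 and 36. Over these settings both assays called 1 to 5, and 44 to 51 had no peak. The ChIP share of summits within 250 bp ran from 7.69% to 10.2% without each ChIP replicate, and the DAP share was 41.5% without DAP replicate 2. The like-length share became 31.2% in ChIP and 48.0% in DAP for genes between the 5th and 95th percentile of member length, and 23.8% and 42.1% with the same number of neighbours, an alternative chosen after seeing the data, as was that of peaks that overlap each other (12 in ChIP). No paired analysis was possible because the results come from no test. The lists hold no read totals, so what depth limits is unknown.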
